A study of Odorrana tormota with 4 samples.

Results

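The genes that handle or answer to thyroid hormone were followed in the brain of the concave-eared torrent frog *Odorrana tormota*: the receptors *THRA* and *THRB*, the deiodinases *DIO1*, *DIO2* and *DIO3*, the transporter *SLCO1C1*, the binding protein *CRYM* and the target gene *KLF9*. The members were the unigenes, that is the assembled transcripts, whose Swiss-Prot match carried one of these symbols, after unigenes that best matched the bird genera *Gallus* or *Meleagris* were left out. All 8 were found among 16911 gene symbols, in 10 of 31043 unigenes with a symbol. Polyadenylated RNA of brain tissue was sequenced in 4 libraries from 12 adult frogs collected on a mountain, for which no treatment is named. RNA of 2 females each made the female pools F1 and F2, and RNA of 4 males each made the male pools M1 and M2. The study set the sexes against each other because males of this frog hear ultrasound and females do not. A pool is the replicate here (n = 2 per sex). Female pools held fewer frogs than male pools, and sex and pool size cannot be told apart. Values are FPKM, the fragments per kilobase of unigene scaled to the fragments of the library, summed over the unigenes of a gene.

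Thyroid hormone acts through nuclear receptors that sit on DNA with a retinoid X receptor, hold target genes down with corepressors when empty, and switch them on with coactivators when the hormone binds. How much hormone reaches the receptor in a brain cell depends on membrane transporters, on outer-ring deiodination of thyroxine by the type II enzyme, which makes the active triiodothyronine, and on inactivation by the type III enzyme. In frogs the same system drives metamorphosis, and it keeps working in the adult brain.

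The members were read from 1 or 2 unigenes each. *THRB* was read from a unigene of 4136 bp (comp238417_c3_seq2), *THRA* from 2147 bp (comp205788_c1_seq2), *DIO1* from 1749 bp, *DIO2* from 1102 bp, *DIO3* from 1151 bp and *CRYM* from 1165 bp. *KLF9* had a unigene of 3823 bp (comp234301_c2_seq6), which held 98.8% of its FPKM, and a fragment of 440 bp. *SLCO1C1* had unigenes of 2983 bp and 698 bp, the longer with 82.8% of its FPKM. The best protein match in the non-redundant database (NR) was an amphibian for 8 of the 10 unigenes, and a turtle for the long unigenes of *KLF9* and *SLCO1C1*. A *CRYM* unigene of 417 bp that best matched *Gallus gallus* was left out by the rule. It was listed at 0 in F1 and F2 and at 1.26 and 0.425 FPKM in M1 and M2.

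*CRYM* and *KLF9* were the abundant members, and the receptors, deiodinases and transporter lay below the middle of all genes in each library. Averaged over the 4 libraries, FPKM was 18.3 for *CRYM*, 15.3 for *KLF9*, 1.87 for *THRB*, 1.76 for *DIO3*, 1.65 for *SLCO1C1*, 0.716 for *DIO2*, 0.653 for *THRA* and 0.380 for *DIO1*. FPKM is per length, so these levels can be set side by side, but only roughly. Those of *KLF9* and *SLCO1C1* are sums over separate unigenes, and unannotated unigenes of the *THRB* assembly component are not in its value. In this order each gene overlapped its neighbour over the 4 libraries, except that the lowest *KLF9* value (6.38) lay above the highest of *THRB* (2.18), so the other steps of the order are not beyond the spread. Ranked among all gene symbols in the same library, *CRYM* stood at percentiles 73.2 to 84.9, *KLF9* at 61.9 to 84.1, *THRB* at 37.2 to 43.4 and *THRA* at 21.0 to 27.7.

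**Figure D1:**
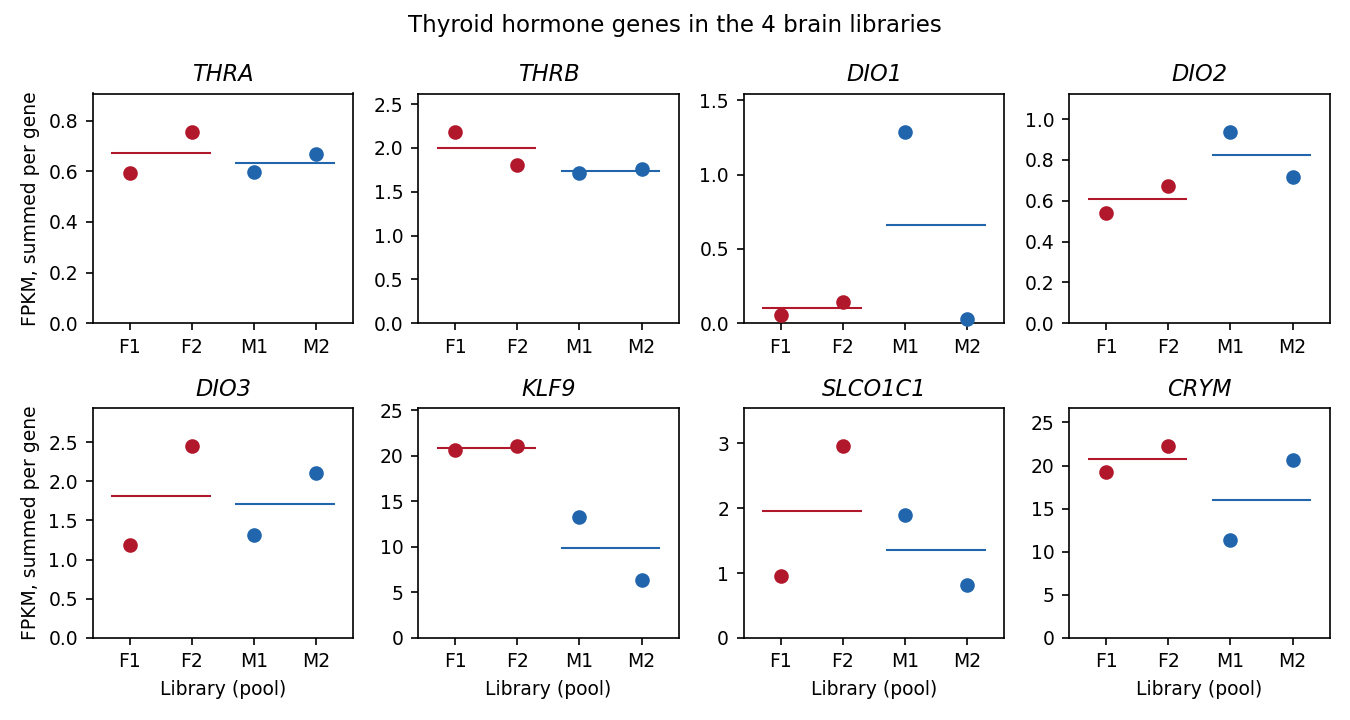
FPKM summed per gene (vertical axis, from 0 and scaled for each gene) in the female pools F1 and F2 (red) and the male pools M1 and M2 (blue), with a line at the mean of each sex. *KLF9* stood at 20.6 and 21.0 in females against 13.3 and 6.38 in males, while *DIO1* was above 1 FPKM in M1 and in no other pool.

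Of the 5 members that could be tested, *KLF9* had the largest difference between the sexes over the 4 libraries on the log2(FPKM + 0.5) scale, and none passed the test after correction for all genes. For the comparison, limma fitted sex to log2(FPKM + 0.5) of the 11975 gene sums that reached 1 FPKM in 2 or more libraries, and p-values were adjusted over all of them by the Benjamini-Hochberg method. The members *THRB*, *DIO3*, *KLF9*, *SLCO1C1* and *CRYM* passed this filter, and *THRA*, *DIO1* and *DIO2* did not. limma called 0 genes (0% of those tested) at an adjusted p under 0.05, and the smallest adjusted p was 0.0538. At an unadjusted p under 0.05 there were 674 genes higher in females (5.63%) and 812 higher in males (6.78%), and *KLF9* was 1 of the 5 tested members in the first group. It was also the 1 tested member over 2-fold higher in females, where 1.91% of all genes tested were. No tested member was over 2-fold higher in males, where 4.12% of all genes tested were. This male excess among all genes depended on which unigenes were counted. With amphibian-matched unigenes only, 145 of 10031 genes passed the 2-fold line on the female side and 117 on the male side. Both female pools lay above both male pools for 23.6% of all genes tested and for 2 of the 5 members, *KLF9* and *THRB*. With 2 pools a sex, the smallest two-sided p of an exact permutation test is 0.33, so none was used.

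*KLF9* is a zinc finger transcription factor that thyroid hormone switches on directly in tadpoles and in rodent brain, and that glucocorticoids also switch on. Its summed level was 20.6 FPKM in F1 and 21.0 in F2, against 13.3 in M1 and 6.38 in M2. The female pools were alike and both exceeded both male pools, while M1 itself was 2.01-fold above M2 (folds are of FPKM + 0.5). In libraries of whole tissue, fewer cells of a type and less RNA per cell cannot be told apart. The difference, female minus male on the log2 scale, was 1.13 (SE 0.35, 95% interval 0.21 to 2.06, unadjusted p = 0.0262 and adjusted p = 0.331 in limma), and the sex means were 2.06-fold apart. M2 set much of its size. Without M2 the sex means were 1.55-fold apart (difference 0.63, adjusted p = 0.964 in limma), and without M1 they were 3.10-fold apart (difference 1.63, adjusted p = 0.404).

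Both *KLF9* unigenes leaned the same way. The long unigene was 20.4 and 20.6 FPKM (F1, F2) against 13.3 and 6.38 (M1, M2). The fragment of 440 bp was 0.231 and 0.483 in the female pools and was listed at 0 in both male pools. A further unigene of the same assembly component without an annotation (comp234301_c1_seq1, 473 bp), picked out after its values were seen, was 0.108 and 0.327 in F1 and F2 and listed at 0 in M1 and M2. All these low values have an unknown depth behind them.

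The receptors differed little between pools. *THRB*, the receptor gene that thyroid hormone itself induces in tadpoles, was 2.18 FPKM in F1 and 1.80 in F2, against 1.71 in M1 and 1.76 in M2. Its 4 values spanned 1.27-fold, and the lower female value was close to the higher male value. The difference was 0.15 (SE 0.21, 95% interval -0.41 to 0.72, adjusted p = 0.810 in limma). *THRA*, the receptor that tadpoles carry before the hormone appears, was 0.592 in F1 and 0.756 in F2, against 0.597 in M1 and 0.667 in M2, so the sexes overlapped. It stood below 1 FPKM in every library, so it was under the filter. Without a filter its difference was 0.050 (adjusted p = 0.928 in limma).

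*THRB* exceeded *THRA* in each library. The ratio of *THRB* to *THRA* FPKM was 3.69 in F1 and 2.39 in F2, against 2.87 in M1 and 2.64 in M2, that is 3.04 ± 0.921 in females and 2.75 ± 0.166 in males (SD, n = 2). The male ratios lay between the female ratios. Unannotated unigenes, 3 in number, belonged to the same assembly component as *THRB*, and they were picked out after their values were seen. The one of 1456 bp was 2.27 and 1.67 FPKM (F1, F2) against 1.41 and 1.79 (M1, M2). The one of 561 bp was 2.02 and 2.09 against 1.25 and 1.21, and the one of 1519 bp was 0.656 and 1.06 against 0.908 and 0.981. They showed no common order of the sexes.

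Among the deiodinases the inactivating enzyme had the highest FPKM, although in M1 *DIO1* was nearly level with *DIO3* (1.29 against 1.31). *DIO3*, which removes an inner-ring iodine and so inactivates thyroxine and triiodothyronine, was 1.18 FPKM in F1 and 2.44 in F2, against 1.31 in M1 and 2.11 in M2. Each sex had a low and a high pool, and the difference was 0.035 (SE 0.38, 95% interval -0.96 to 1.03, adjusted p = 0.982 in limma). *DIO2*, which makes triiodothyronine from thyroxine within the brain, was 0.541 in F1 and 0.672 in F2, against 0.937 in M1 and 0.714 in M2. Both male values were above both female values, but all were under the filter, and the fit without a filter gave -0.26 (SE 0.22, adjusted p = 0.588). The ratio of *DIO3* to *DIO2* FPKM was above 1 in all libraries, at 2.19 in F1 and 3.64 in F2, against 1.40 in M1 and 2.95 in M2, and the sexes overlapped.

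*DIO1*, the deiodinase known from liver and kidney, was at 1.29 FPKM in M1 and nearly absent elsewhere, at 0.0580 in F1, 0.145 in F2 and 0.0285 in M2. The sex means were 0.101 ± 0.0613 in females and 0.659 ± 0.891 in males (SD, n = 2), and the difference rested on M1. Its log2 difference was -0.70, with an adjusted p = 0.640 in limma without a filter, without M1 it was 0.18, and without M2 it was -1.58.

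*SLCO1C1*, which carries thyroxine across the blood-brain barrier in rodents, varied more between pools of a sex than between the sexes. It was 0.955 FPKM in F1 and 2.96 in F2, against 1.89 in M1 and 0.820 in M2. F2 and M1 were high and F1 and M2 low, so the sexes overlapped, and the difference was 0.34 (SE 0.54, 95% interval -1.09 to 1.77, adjusted p = 0.837 in limma). Its sign turned without M2 (-0.091) and without F2 (-0.29, not tested, since the gene then fell under the filter). Its unigenes followed the same order, the long one at 0.860, 2.20, 1.61 and 0.820 and the short one at 0.0945, 0.760, 0.283 and 0 in F1, F2, M1 and M2. *PECAM1* and *CDH5*, markers of endothelium chosen after their values were seen, also stood higher in F2 than in F1 and higher in M1 than in M2. So did 5 of the 7 endothelial genes tested, against 27.9% of all genes and 2 of the 5 members tested, *KLF9* and *SLCO1C1*. This order was not particular to endothelium. It held for 6 of the 9 other KLF genes tested and 5 of the 7 genes of a glucocorticoid list, both described below. The summed level of the endothelial list, mostly *SLC2A1*, did not have that order, at 88.0 and 85.2 FPKM (F1, F2) against 100.2 and 93.3 (M1, M2). None of the 7 was at 0, and no unigene kept after the bird filter carried the symbols *CLDN5* or *MFSD2A*. The part of endothelium in the *SLCO1C1* values was not tested.

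*CRYM* encodes a cytosolic protein that binds triiodothyronine and also works as a ketimine reductase. It was 19.2 FPKM in F1 and 22.2 in F2, against 11.3 in M1 and 20.6 in M2. M1 stood apart as the low pool, and M2 lay between the female pools. The difference was 0.42 (SE 0.30, 95% interval -0.38 to 1.23, adjusted p = 0.632 in limma). Without M1 it was near 0 (0.0031 on the log2 scale), and without M2 it was 0.84. With the bird-matched unigene kept, its 1.26 and 0.425 FPKM add to the male values, and the difference was 0.33.

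**Figure D2:**
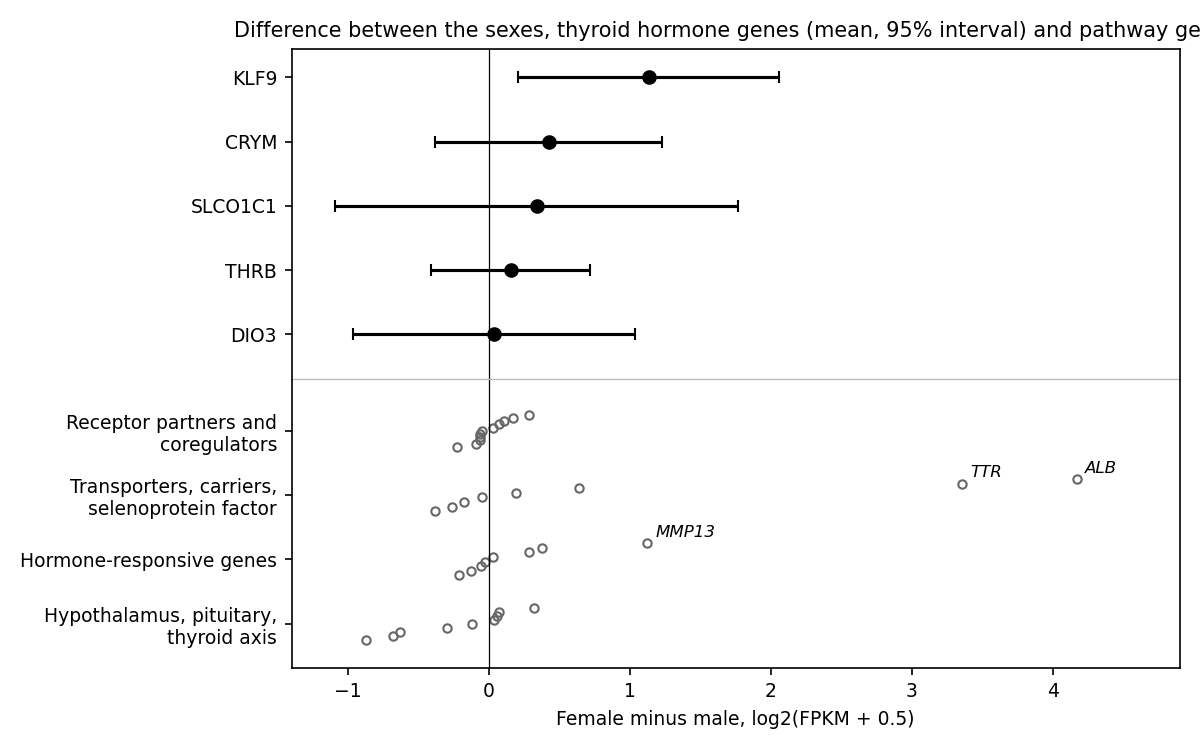
Female minus male difference on the log2(FPKM + 0.5) scale (horizontal axis). Filled points with bars are the 5 members tested, with their 95% intervals from limma, and open points are genes of the 4 pathway lists, one row for each list. The *KLF9* interval ran from 0.21 to 2.06 and those of the other 4 members crossed 0, while *TTR* at 3.35 and *ALB* at 4.17 lay far from the rest of the pathway genes.

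Pools of the same sex differed for several members. F2 exceeded F1 over 2-fold for *SLCO1C1* (2.38-fold), where 5.28% of all genes tested did so, and no tested member had F1 over 2-fold above F2 (0.969% of all genes). M1 exceeded M2 over 2-fold for *KLF9* (2.01-fold), where 2.93% of all genes tested did so, and *DIO1*, under the filter, was 3.38-fold higher in M1. No tested member had M2 over 2-fold above M1 (1.19% of all genes). M2 exceeded M1 in *CRYM*, with M1 at 0.559 of M2, and in *DIO3*, with M1 at 0.694 of M2. These pairs of libraries have no replicates and were not tested.

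**Figure D3:**
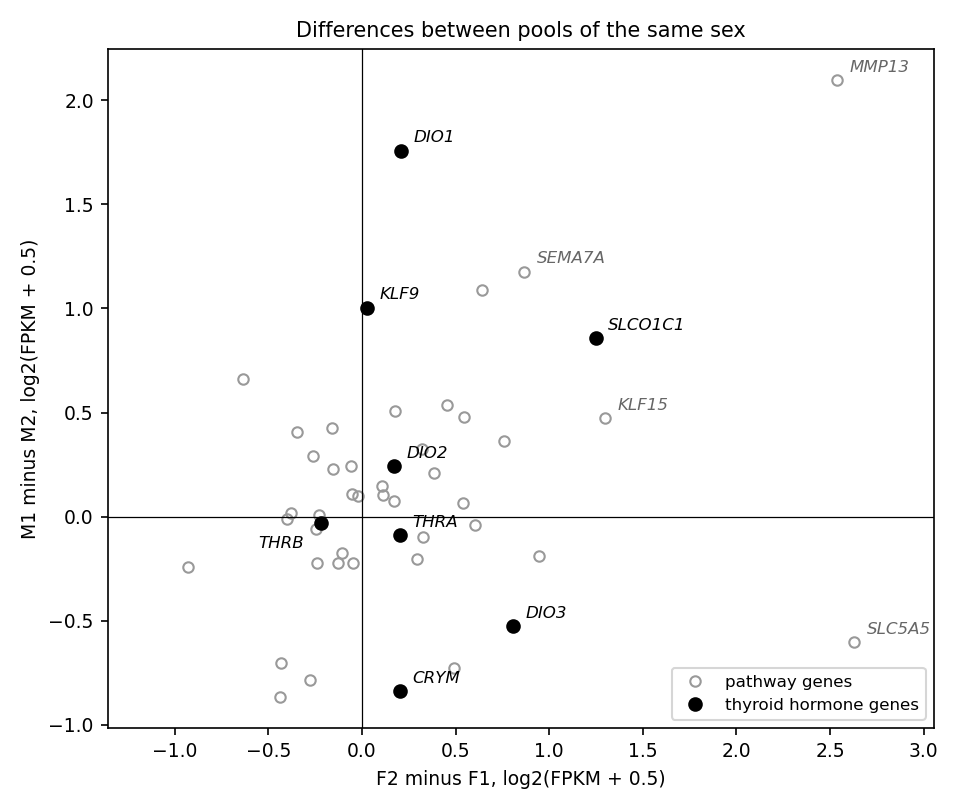
Difference of F2 from F1 (horizontal axis) against that of M1 from M2 (vertical axis), both on the log2(FPKM + 0.5) scale, for the 8 thyroid hormone genes (filled) and 40 genes of the pathway lists (open, *CGA* left out because it lies far to the right). *SLCO1C1* lay at 1.25 and 0.86, *KLF9* at 0.026 across and high on the vertical axis, and *THRA* and *THRB* near the centre.

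Around these members, the messages of the thyroid hormone pathway were within 2-fold between the sexes, apart from a few genes. The 4 lists written by role held 46 genes, of which 41 had a unigene and 36 passed the filter. limma called 0 of the 36 at an adjusted p under 0.05, as it called 0% of all genes. Over 2-fold higher in females were 4, and over 2-fold higher in males 0, against 1.91% and 4.12% of all genes tested. At an unadjusted p under 0.05 there were 2, *TTR* and *ALB*, both higher in females, against 5.63% of all genes tested. The median difference was -0.038, against 0.021 over all genes tested.

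The partners and coregulators of the receptors spanned the narrowest range of differences of the 4 lists. All 11 genes tested were within 2-fold (differences from -0.23 to 0.28, median -0.047), and none had pools of one sex both above those of the other, against 23.6% and 20.9% of all genes. The corepressor *NCOR1* was 16.4 and 15.8 FPKM (F1, F2) against 17.4 and 16.1 (M1, M2). *HDAC3*, the deacetylase of the same complex, was 19.5 and 18.9 against 16.5 and 19.3. *GPS2*, another subunit of it, was 12.5 and 15.8 against 14.0 and 15.0, and *TBL1X* was 13.0 and 12.0 against 12.5 and 14.2. These corepressor genes thus stood several-fold above *THRB* in each library. The retinoid X receptor *RXRA*, the partner that completes the dimer, was 1.98 and 3.71 against 3.80 and 2.84. No unigene kept after the bird filter carried *RXRB* or *RXRG*.

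The tested transporters, with *SLCO1C1* among them (1.32-fold), were within 2-fold between the sexes, and the plasma carriers were over 2-fold apart. *SLC3A2*, the heavy chain of the amino acid transporters that also move thyroid hormone, was 45.9 and 56.4 FPKM (F1, F2) against 41.5 and 47.8 (M1, M2). Its partner *SLC7A5* was 3.58 and 3.16 against 4.97 and 4.16 (difference -0.39, SE 0.19, adjusted p = 0.493 in limma). *SLC16A10*, a carrier of aromatic amino acids and triiodothyronine, was 15.9 and 17.9 against 17.9 and 17.0, and exceeded *SLCO1C1* in each library. *SECISBP2*, which lets ribosomes insert the selenocysteine that deiodinases need, was 2.51 and 3.87 against 1.89 and 1.78, with both female pools above both male pools (difference 0.64, SE 0.26, adjusted p = 0.430 in limma). The hormone carriers of plasma, transthyretin (*TTR*) and albumin (*ALB*), were higher in females by 3.35 (SE 0.22, adjusted p = 0.0538 in limma) and 4.17 (SE 0.36, adjusted p = 0.0576). *TTR* was 6.50 and 5.92 against 0.107 and 0.209, and *ALB* was 21.4 and 15.7 against 0.274 and 0.912. The unigenes behind the female values of both best matched a mouse protein in Swiss-Prot and a bird in NR, not an amphibian, and which organism they came from was not tested. No unigene kept after the bird filter carried *SLCO1A2*.

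Genes that respond to thyroid hormone in brain or in tadpoles were mostly within 2-fold between the sexes. Of 8 tested, 1 was over 2-fold higher in the female mean and 0 in the male mean, against 1.91% and 4.12% of all genes tested. The median difference was -0.0005. Myelin basic protein (*MBP*), the major myelin protein whose onset depends on the hormone in rodents, was 905 and 811 FPKM (F1, F2) against 1152 and 857 (M1, M2). Neurogranin (*NRGN*), a calmodulin-binding protein of dendrites, was 108 and 89.2 against 73.3 and 127. The extracellular matrix protein reelin (*RELN*) was 35.2 and 26.5 against 33.2 and 33.5, and the kinase *CAMK4* was 21.2 and 17.8 against 19.4 and 20.3. The collagenase *MMP13*, of the proteases that remodel tadpole tissue, was the 1 gene over 2-fold apart, at 3.62, 23.4, 8.94 and 1.71 in F1, F2, M1 and M2 (difference 1.12, SE 1.10, adjusted p = 0.727 in limma). Its spread within each sex was wider than that between the sexes, and its difference turned to -0.15 without F2. *KLF13*, the nearest relative of *KLF9*, stayed under the filter at 0.246, 0.939, 0.505 and 0.648. No unigene kept after the bird filter carried the symbol *HR*.

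Of the thyroid axis, the hypothalamic peptides and their receptors were within 2-fold between the sexes, and the pituitary hormone chain differed widely between pools. Thyrotropin-releasing hormone (*TRH*) was 29.3 and 33.2 FPKM (F1, F2) against 45.8 and 32.1 (M1, M2) (difference -0.30, SE 0.20, adjusted p = 0.611 in limma), and its receptor *TRHR* was 14.1 and 13.9 against 13.9 and 12.9. Corticotropin-releasing hormone (*CRH*), which drives thyrotropin release in tadpoles, was 7.67 and 8.34 against 9.09 and 8.42, with both male pools narrowly above both female pools. *CRHR2*, its receptor on amphibian thyrotropes, was 1.48 and 2.52 against 3.38 and 3.49 (difference -0.68, SE 0.27, adjusted p = 0.424 in limma). *CRHBP*, which binds and holds back the peptide, was 15.8 and 12.3 against 15.7 and 11.8, and the receptor *CRHR1* was 9.96 and 7.55 against 8.26 and 8.17. The alpha chain that thyrotropin shares with the gonadotropins (*CGA*) was 9.64 in F1 and 1351 in F2, against 131 in M1 and 248 in M2. Its sex means were 3.58-fold apart with females higher, while its mean log2 difference was -0.63 (SE 2.35, adjusted p = 0.945 in limma), so the sign depended on the scale. No unigene kept after the bird filter carried *TSHB*, the specific chain of thyrotropin.

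Pituitary markers set F1 and F2 far apart. The 7 pituitary markers with a unigene summed to 84.7 FPKM in F1 and 6683 in F2, against 1610 in M1 and 1087 in M2, and *POU1F1* was listed at 0 in F1. *POMC* made M1 exceed M2 in this sum, and without it the other 6 summed to 38.5 and 5305 FPKM (F1, F2) against 549 and 918 (M1, M2). *KLF9* in F2 was 1.02-fold its level in F1, and *THRB* 0.858-fold. All these 6 markers were lowest in F1, then M1, M2 and F2, an order found in 3.99% of all genes tested. *DIO3* had the same order and was the 1 tested member that did. *THRA*, under the filter, had it too, at 0.592, 0.597, 0.667 and 0.756 FPKM in F1, M1, M2 and F2. The part of pituitary tissue in the values of *DIO3*, *THRA*, *KLF9* and *THRB* was not tested.

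The other genes of the KLF family, a list chosen after *KLF9* was seen, were within 2-fold between the sexes. Of 17 other KLF symbols 11 had a unigene and 9 were tested. Their differences ran from -0.59 to 0.76 (median -0.063). None was over 2-fold higher in females or in males, against 1.91% and 4.12% of all genes tested. *KLF11* was 14.2 and 15.9 FPKM (F1, F2) against 10.8 and 12.7 (M1, M2) (difference 0.35, SE 0.15, adjusted p = 0.434 in limma). It was the 1 other family member with both female pools above both male pools, against 23.6% of all genes tested. *KLF8* had both male pools higher (20.9% of all genes tested), at 3.76 and 3.22 against 4.48 and 6.67 (difference -0.59, SE 0.25, adjusted p = 0.435 in limma). *KLF5* was 5.45, 11.6, 15.0 and 6.51 in F1, F2, M1 and M2, with its lowest value in F1. Whether *KLF9* differs from these genes was not tested.

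A list of genes that glucocorticoids switch on, with their receptors, was also chosen after *KLF9* was seen. All 7 with a unigene had a higher female mean, by differences of 0.059 to 1.27 (median 0.67, against 0.021 over all genes tested). The share of all genes with a higher female mean was not counted. Over 2-fold higher in females was 1, against 1.91% of all genes, and at an unadjusted p under 0.05 there were 2, against 5.63%. *ZBTB16*, a zinc finger factor, was 1.87 and 2.81 FPKM (F1, F2) against 0.890 and 0.476 (M1, M2) (difference 1.27, SE 0.32, adjusted p = 0.240 in limma). The kinase *SGK1* was 40.6 and 49.8 against 33.8 and 23.5 (difference 0.67, SE 0.22, adjusted p = 0.347). Both had all female values above all male values, as *KLF9* did. This held for 2 of the 7, against 23.6% of all genes tested. Their lowest value was in M2, as was that of *KLF9*. The share of all genes with their lowest value in M2 was not counted. *TSC22D3* was 92.4 and 185 against 110 and 53.9, and the phosphatase *DUSP1* was 18.1 and 44.1 against 28.1 and 8.40. In both the sexes overlapped and the lowest value was in M2. The clock gene *PER1* had no such order, at 17.0 and 11.9 against 12.3 and 15.2. Of the receptors, *NR3C1* had its lowest value in M2 (1.42) and *NR3C2* in M1 (4.50). limma called 0 of the 7 at an adjusted p under 0.05. The part of glucocorticoids in the *KLF9* values was not tested.

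Some markers of astroglia and radial glia were higher in both female pools, as *KLF9* was, and others were not. The 7 genes of the astroglia and radial glia list with a unigene summed to 1492 and 1446 FPKM (F1, F2) against 979 and 1103 (M1, M2). That order rested on *GLUL*, and the other 6 summed to 486 and 464 against 423 and 484, so that the sexes overlapped. Of the 6 tested, 3 had both female pools above both male pools (23.6% of all genes), *GLUL* at 1005 and 982 against 556 and 619 (difference 0.76, SE 0.14, adjusted p = 0.112 in limma), *SLC1A3* at 240 and 217 against 180 and 197, and *SOX9* at 5.88 and 6.22 against 4.40 and 3.34. *FABP7* had both male pools higher, at 217 and 224 against 225 and 266. *VIM* (2.23 and 0.449 against 1.96 and 1.92) and *SLC1A2* (20.9 and 14.4 against 11.9 and 15.4) overlapped between the sexes. No listed gene was at 0, and no unigene kept after the bird filter carried *GFAP*. Neuron markers summed to 1653 and 1279 against 1574 and 1513, and oligodendrocyte markers to 1152 and 1157 against 1598 and 1205. At an unadjusted p under 0.05 in limma, *GLUL* and *SOX9* were higher in females, against 5.63% of all genes tested. The oligodendrocyte marker *SOX10* (difference -0.82), the neuron marker *NEFL* (-0.67) and the choroid plexus marker *OTX2* (-0.50) were higher in males, against 6.78%. Their adjusted p in limma was 0.231, 0.380 and 0.401. The other tested choroid plexus markers leaned to females, *CLIC6* by 0.57 and *SLC4A5* by 0.56. The other tested neuron markers ran from -0.20 (*SLC17A6*) to 0.12 (*MAP2*). The endothelial marker *KDR* was over 2-fold higher in the male mean through M1 only. It was 0.459 and 1.09 FPKM (F1, F2) against 4.57 and 0.762 (M1, M2), so the sexes overlapped. The part of glial cells in the *KLF9* difference was not tested. The neuronal genes *SNAP25* and *MAP2* were at 262 FPKM or more in every library, while *ELAVL4*, also of neurons and picked out for its values, was listed at 0 in F1 and F2 and below 1 FPKM in M1 and M2.

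**Figure D4:**
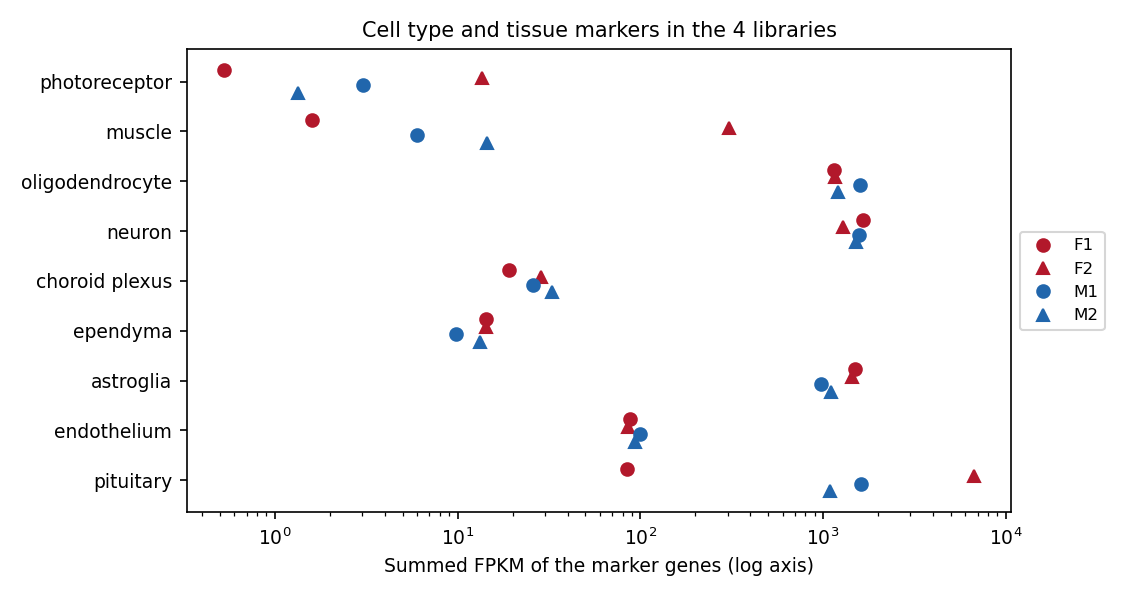
Summed FPKM of each marker list (horizontal log axis) in F1 and F2 (red) and M1 and M2 (blue), with circles for the pools numbered 1 and triangles for those numbered 2. The astroglia sum was higher in both female pools through *GLUL*, whereas pituitary, muscle and photoreceptor markers were lowest in F1 and highest in F2.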

How the data were processed

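The authors filtered the reads of 4 brain libraries, assembled all of them with Trinity, removed redundancy with TGICL and aligned each library to the unigenes with Bowtie2. The deposited FPKM values were made by the authors. Salmon, edgeR, cutadapt and FastQC stand in the submitters' processing notes without versions, and which tool made the values is not given in the sources used here. The values are fractional estimates from which whole reads could not be recovered, so the depth behind a value is unknown. The FPKM summed to 669260 (F1) to 717478 (M1), and 11252 (F1) to 12077 (M2) gene sums reached 1 FPKM.

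Symbols were read from the GN field of the Swiss-Prot match, with case and a final -a or -b dropped, and FPKM was summed per symbol. Genes were counted as having a unigene, or none, after the bird-matched unigenes were left out. Sex was the term of a limma model (version 3.58.1, under R 4.3.3) of log2(FPKM + 0.5) (trend, 2 residual and 2.59 prior degrees of freedom), with Benjamini-Hochberg adjustment and a threshold of 0.05. DEGseq, the study's test, needs reads and could not be used. Fold counts use sex means of FPKM + 0.5. The script was tested on simulated data. Members and lists were chosen with earlier results of these data known. Named genes were the members, the 5 most abundant genes of each pathway list, those over 2-fold apart or with an unadjusted p under 0.05, those without a unigene, and the 2 most abundant markers of a list, and any other gene was chosen after its values were seen. A few genes of the lists are not reported here. Pools of a sex are separate pools of frogs. The p-values rest on the spread between them together with a prior spread drawn from all genes tested. Alternatives were the number added (0.1, 1), filters (none, mean of at least 5 FPKM), scalings, replicate block, each library left out, limma settings, unigene handling, bird or amphibian matches, and fold thresholds (1.5, 4). Sums and plots used pandas 2.3.3, numpy 2.4.6 and matplotlib 3.10.9 under Python 3.11.15.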

Additional observations from a re-analysis of the deposited data

How the results depend on the processing

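No tested member was called by limma under any alternative run. The *KLF9* difference was positive in 17 alternatives, from 0.63 without M2 to 1.63 without M1. With all 4 libraries kept, its adjusted p was 0.168 to 0.510 in limma. Both female values exceeded both male values, so leaving a library out could not turn the sign. The blocks, limma settings and filters left the difference itself unchanged, so these 17 are not independent support. Members over 2-fold apart numbered 1, and 0 to 1 with a library left out, 0 with a threshold of 4 and 0 with amphibian-matched unigenes only, where the long *KLF9* unigene has a turtle match and drops out. Pathway genes over 2-fold apart numbered 4, and 2 to 5 with a library left out, 7 at a threshold of 1.5, 2 at a threshold of 4, 2 with amphibian-matched unigenes and 2 without *TTR* and *ALB*, a choice made after seeing the data. *DIO3* turned to -0.37 without F2 and -0.23 without M1 (range -0.37 to 0.44), *SLCO1C1* to -0.091 without M2 and -0.29 without F2 (range -0.29 to 0.96; without F2 or M1 it fell under the filter and was not tested), *MMP13* to -0.15 without F2 (range -0.15 to 2.39) and *CGA* to 2.90 without F1 (range -4.16 to 2.90).

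Over all genes limma called 0. It called 305 with 0.1 added, 371 with bird-matched unigenes kept, 289 without a trend, 25 with a robust prior, 32 with the most abundant unigene only, and 0 to 2 with a library left out. *TTR* was among the calls in the first 5 of these and *ALB* in the first 4. Genes over 2-fold apart numbered 722, against 262 with amphibian-matched unigenes, 162 with a mean of at least 5 FPKM, 2299 without a filter, 5161 unigenes in a fit of unigenes, 1580 at a threshold of 1.5, 322 at a threshold of 4, and 443 to 795 with a library left out. Of the 722 genes, 229 leaned to females and 493 to males. The 262 with amphibian-matched unigenes were 145 and 117, and the 162 with a mean of at least 5 FPKM were 107 and 55. The male excess was also absent without M1 or without M2, and the other fits kept it. The replicate number as a block called 0 genes and changed no call (*KLF9* adjusted p = 0.510). Deviations of F1 and M1 from their sex means had r = -0.25 across 11975 genes, and with the pairs crossed, a choice made after seeing the data, 37 genes were called and no member. The cause of these shifts was not tested.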

Other observations

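Beyond the lists, the KEGG thyroid hormone signaling pathway, as annotated in the deposited table, held 125 symbols after the bird filter, of which 100 were tested, a choice made after seeing the data. limma called 0 of them at an adjusted p under 0.05. Over 2-fold higher in females were 2 and in males 7, against 1.91% and 4.12% of all genes tested, and the median difference was 0.014. At an unadjusted p under 0.05 there were 5 higher in females and 8 in males, against 5.63% and 6.78% of all genes tested. The male-high genes over 2-fold apart included symbols of actins, such as *ACT42A* (0.0566 and 1.06 FPKM for F1 and F2, 6.07 and 14.8 in M1 and M2) and *ACT8* (0.311 and 0.0538 against 2.80 and 1.55). *RCAN2*, a calcineurin regulator that responds to thyroid hormone in human fibroblasts, was 20.4 and 18.2 against 12.8 and 15.2 (difference 0.45, SE 0.14, adjusted p = 0.343 in limma).

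A pair of unigenes outside the rule had the 1C1 transporter as their NR match but *SLCO1B2* as their Swiss-Prot symbol. Both were listed at 0 in M1 and M2. One, matching *Gallus gallus*, had 0.890 FPKM for F1 and 0.461 for F2, and the other, matching an alligator, was 0.282 and 0.188.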
